A study of Mus musculus with 12 samples.

Results

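Gata2+Apoe+ cells are a small fraction of c-Kit+ mouse bone marrow that carries the label of megakaryocyte-erythroid progenitors (MEPs) and that was studied here in mice with deletion of Ezh2, with activated NRas or with both. A cell was chosen when it held at least 1 UMI of Gata2 and at least 2 UMIs of Apoe, when Car1 stayed below 5 per 10000 UMIs of the cell, when it held no UMI of Prss34 or Mcpt8, and when fewer than 3 of the 6 platelet genes Pf4, Ppbp, Gp1bb, Gp9, Itga2b and Rab27b were detected. A UMI is the tag that lets 1 captured molecule of RNA be counted once. The rule was met by 457 of 32701 cells. It differs from the annotation of the study, whose class of this name was also marked by platelet genes that the rule limits here, so its shares are not those of that class. Since these genes chose the cells, the levels of the 11 genes are a description and were not tested.

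MEPs are progenitors that lie between multipotent cells and the separate precursors of platelets and of red cells. In the marrow they are known for holding transcription factors of both lineages at once, such as GATA1, which both lineages need, KLF1, which drives the erythroid program, and FLI1, which drives the megakaryocytic program. GATA2 acts in stem cells and early progenitors, is replaced by GATA1 as red cells mature, and is also a required factor of mast cells and basophils.

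All mice were C57BL/6 animals, were injected with pIpC (per the labels at 8 to 12 weeks of age) and were sampled once at T1 (2 weeks later), T2 (2 months later) or T3 (4 months later). The methods of the study give a younger age at injection than the labels, and which is right was not settled here. The pIpC switches on the recombinase Mx1-Cre, which acts in blood-forming cells and in other interferon-responsive tissues. E2-KO mice were Mx1-Cre+;Ezh2 f/f, G12D mice were Mx1-Cre+;NRas G12D+/-, and G12D/E2-KO mice carried both sets of alleles. WT mice were negative for Mx1-Cre, so that the recombinase differed between WT and every mutant and its effect cannot be told apart from theirs in a comparison with WT. Ezh2 encodes the enzyme that methylates histone H3 in Polycomb repressive complex 2 and so keeps genes silent. Nras encodes a GTPase that passes signals of growth factor receptors to the ERK kinases. There was 1 library for each genotype and time point, 12 libraries in all, and the 3 libraries of a genotype were taken as its replicates, so the spread between replicates includes the time after pIpC. The sources used here do not say whether a library came from 1 mouse or from a pool. The study asked how both mutations, alone and together, change the progenitors of the marrow while leukemia develops.

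The libraries held 2350 to 3767 cells and 12636998 to 23646292 UMIs, with a median of 3780.5 to 6975.5 UMIs per cell. As deposited, 2896 cells of G12D T1 had a match among the 3044 cells of G12D/E2-KO T1, and 1494 of these were equal in every gene. The shared cells were counted once, in G12D/E2-KO T1, and which library they came from was not tested. None of the other 65 pairs of libraries shared a cell. Of the shared cells 42 met the rule, so that the tables as deposited gave 499 Gata2+Apoe+ cells. The G12D/E2-KO T1 library held 42 Gata2+Apoe+ cells, so its values depend on where the shared cells were counted. Xist, the RNA that coats the inactive X chromosome in female cells, was found at 1296 to 1357 CPM over all cells of the T3 libraries of WT, E2-KO and G12D and at 0 to 0.608 CPM in the remaining 9 libraries. CPM stands for UMIs of a gene per 1000000 UMIs of the cells summed. In Xist, G12D/E2-KO T3 differed from the T3 libraries of the other genotypes, which cannot be told apart from the genotype at T3.

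Each library contributed 21 to 59 Gata2+Apoe+ cells and 78352 to 354911 UMIs. Their median UMI number was 3193 to 6120 per cell, against 3802 to 7017 in the other cells of the same libraries. Of 10655 late granulocytes, which should lack both genes, 0.788% held a UMI of Gata2 and 1.08% held at least 2 of Apoe at a median of 4641 UMIs, and 2 (0.0188%) met the whole rule. The median over all Gata2+Apoe+ cells was 4964 UMIs.

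Summed over cells, the class held RNA of transcription factors of both lineages, and whether single cells held both was not examined. Levels below are means of the CPM of 12 libraries in Gata2+Apoe+ cells, in megakaryocytic cells (611 cells with at least 3 of the platelet genes) and in early erythroid cells (3916 cells with Car1 at or above the limit and low globin). Gata1 was at 94.7 CPM, against 92.1 in megakaryocytic and 137 in early erythroid cells. Klf1 was at 101 CPM, between 32.0 and 291 CPM in those classes. Fli1 was at 94.4 CPM against 281 and 10.6, and Mef2c, a factor of megakaryocyte and lymphoid precursors, was at 160 CPM against 494 and 18.3. Meis1, a factor shared with stem cells, was at 113 CPM against 156 and 5.50 CPM, and Myb, which maintains progenitor growth, was at 364 CPM, above the 121 and 225 CPM of both neighbours. Epor, the erythropoietin receptor, was at 19.8 CPM against 22.8 and 62.2. These are descriptions, since the classes were drawn on the same counts.

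The list of 25 other platelet and megakaryocyte genes summed to 1203 CPM, against 5013 in megakaryocytic, 191 in early erythroid and 970 in cells with a UMI of Hlf and 1480 in late granulocytes, with 22 genes detected. The list also holds Fli1. Of its genes of finished platelets, Vwf, the adhesive protein of platelets, was at 5.06 CPM against 158 in megakaryocytic cells, Itgb3, the platelet fibrinogen receptor chain, was at 5.99 against 244 CPM, and Gp6 and Tubb1 had no UMI. Car2, a carbonic anhydrase of erythroid cells, was at 500 CPM against 1856 in early erythroid cells, and Mt2, a metallothionein, was at 84.3 against 733 CPM. The early erythroid list of 18 genes summed to 3045 CPM, against 2892 in megakaryocytic and 8768 in early erythroid cells. The list of 12 late erythroid genes, mostly globin RNA, summed to 3700 CPM, above the 2742 of megakaryocytic and the 2131 of early erythroid cells, which a limit on globin had helped to define, and near the 3776 of cells with a UMI of Hlf. Hbb-bs, a beta globin, was at 1894 CPM against 14937 in all other cells, with a UMI in 86.0% of the Gata2+Apoe+ cells, and late granulocytes held 900 CPM. It ranged from 217 CPM in G12D T3 to 6436 CPM in G12D T2, and the part of free RNA in these values was not tested. The list of 20 stem and multipotent progenitor genes summed to 1685 CPM, close to the 1767 CPM of 1177 cells chosen by a UMI of Hlf, a transcription factor of stem cells, although Hlf itself was at 31.0 against 222 CPM and Flt3 at 2.57 against 52.9 CPM. The cells chosen by Hlf were mixed, so their level is not that of stem cells alone. They held 71756 CPM of late granulocyte genes and 13866 CPM of granulocyte-macrophage progenitor genes, against 5065 and 5440 CPM in Gata2+Apoe+ cells.

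The label held only in part, because genes of basophils and mast cells led the Gata2+Apoe+ cells. Of 20 genes with the highest ratio to all other cells, Ms4a2 stood at the top with 155 CPM against 7.74, above Apoe and Gata2, which the rule had used. Ms4a2 and Fcer1a encode chains of the high-affinity IgE receptor, Cpa3 encodes the mast cell carboxypeptidase, and Slc18a2 encodes a transporter that loads monoamines such as histamine into granules. Csrp3, a LIM domain protein best known from muscle, was at 197 CPM against 12.7 in all other cells, Cpa3 at 146 against 17.3, Slc18a2 at 59.2 against 4.14 and Fcer1a at 53.7 against 4.06 CPM. A UMI of Ms4a2 was found in 24.1% of the cells, of Csrp3 in 30.0% and of Fcer1a in 10.5%. The list of 14 basophil and mast cell genes summed to 606 CPM, against 41.9 to 75.1 CPM in the 4 other classes examined, with 11 of its 14 genes detected and Mcpt4, Tpsb2 and Ccl3 at 0. The list was drawn with earlier results of these data known and holds Csrp3. That gene supplied 197 of the 606 CPM, and 30.7 of the 41.9 CPM in early erythroid cells. Cma1, a mast cell chymase, was at 0.408 CPM. The rule itself had excluded cells with the basophil proteases Prss34 and Mcpt8.

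Other leading genes included Angpt1, a ligand of the TIE2 receptor, at 135 CPM against 16.9 in all other cells, Meis1 at 113 against 13.1, Ctla2a, a protease inhibitor, at 275 against 37.2 and Myct1 at 81.6 against 8.03 CPM. Ikzf2, a zinc finger factor, was at 166 against 17.5 CPM and was seen in 47.9% of the cells. Leaving Apoe and Gata2 aside, the leading genes were higher than in all other cells in 12 of 12 libraries, except Fcer1a, which was higher in 11. Megakaryocytic cells held more F2r, the thrombin receptor, in 12 of 12 libraries and more Mycn in 11 of 12.

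**Figure D1:**
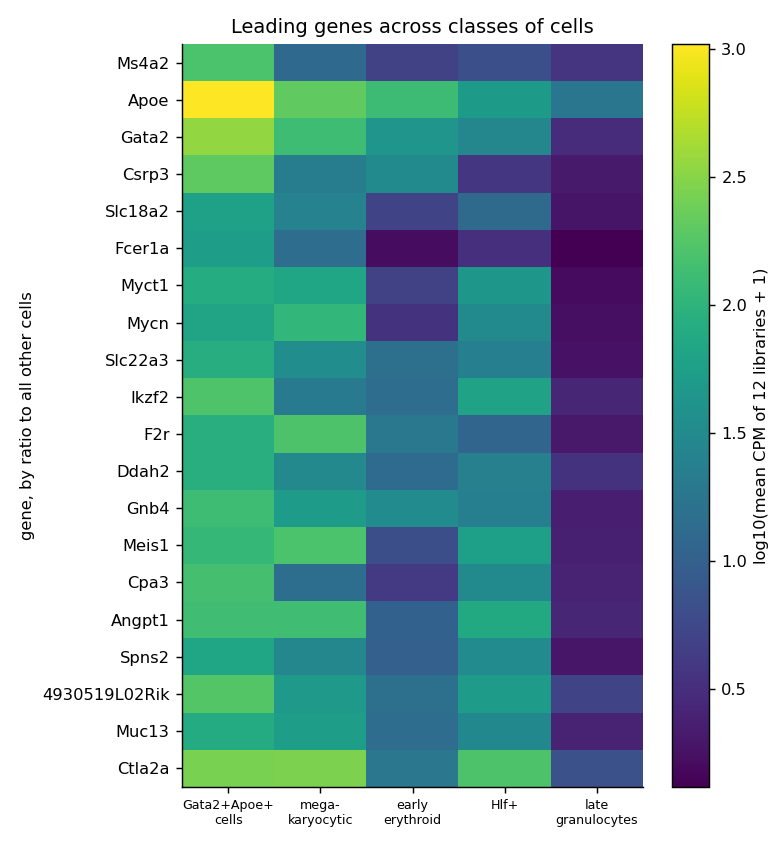
Heat map of the 20 genes with the highest ratio of Gata2+Apoe+ cells to all other cells (rows), as log10 of the mean CPM of 12 libraries plus 1, in Gata2+Apoe+ cells, megakaryocytic cells, early erythroid cells, cells with a UMI of Hlf (Hlf+) and late granulocytes (columns). Ms4a2, Csrp3, Fcer1a and Cpa3 are brightest in the column of Gata2+Apoe+ cells, whereas Meis1, Angpt1 and Ctla2a are as bright in megakaryocytic cells.

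Promoters of 3 of these leading genes are shown because they hold the letters AGATAA, or TTATCT on the other strand, which contain the core GATA factors bind. The windows are RefSeq sequences of GRCm38.p6 that run from 250 bases before to 50 bases after the annotated start, printed 5′ to 3′ on the strand of the gene, with every match in capitals. Of the 20 leading genes 17 were matched by symbol to 23 promoters, of which 7, from 7 genes, held a match, and 3672 of all 32851 promoters (11.2%) held one. Ms4a2 (chr19:11623670-11623969, minus strand) had 3 matches, and Cpa3 (chr3:20242132-20242431, minus strand) and Myct1 (chr10:5593478-5593777, plus strand) had 1 each. A match is a description and not a binding site.
Ms4a2: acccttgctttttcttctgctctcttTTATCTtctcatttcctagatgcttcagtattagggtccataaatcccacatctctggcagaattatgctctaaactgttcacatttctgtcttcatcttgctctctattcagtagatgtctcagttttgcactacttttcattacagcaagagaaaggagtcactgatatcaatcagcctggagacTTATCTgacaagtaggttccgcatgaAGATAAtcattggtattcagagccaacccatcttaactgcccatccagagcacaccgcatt
Cpa3: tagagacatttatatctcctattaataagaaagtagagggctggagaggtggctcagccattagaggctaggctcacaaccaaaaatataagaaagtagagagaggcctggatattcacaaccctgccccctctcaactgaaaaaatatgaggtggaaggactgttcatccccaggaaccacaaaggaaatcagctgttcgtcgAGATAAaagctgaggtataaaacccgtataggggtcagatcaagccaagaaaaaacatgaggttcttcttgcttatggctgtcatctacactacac
Myct1: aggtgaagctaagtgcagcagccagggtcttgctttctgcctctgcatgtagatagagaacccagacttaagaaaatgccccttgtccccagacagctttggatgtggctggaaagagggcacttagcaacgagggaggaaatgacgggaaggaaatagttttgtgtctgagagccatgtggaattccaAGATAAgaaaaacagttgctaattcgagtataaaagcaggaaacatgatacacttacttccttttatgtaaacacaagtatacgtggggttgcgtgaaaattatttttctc

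The Gata2+Apoe+ cells differed among themselves. A UMI of at least 1 of Ms4a2, Fcer1a, Gzmb, Cma1, Mcpt4 and Tpsb2 was held by 134 cells (29.3%), 1 or 2 of the 6 platelet genes by 232 cells (50.8%) and a UMI of Car1 below the limit by 141 cells (30.9%). None of the 3 kinds was found in 104 cells (22.8%), whose median of 4079.5 UMIs was below the 5206 to 5551.5 of the other subsets. The kinds overlapped: 75 cells held both mast and platelet genes, which is 56.0% of the first and 32.3% of the second, and 63 held platelet genes and Car1, which is 27.2% and 44.7%. The cells with Car1 had the most Klf1 and Blvrb of these kinds, at 141 and 267 CPM over the summed cells, and the cells with none of the 3 kinds had 169 CPM of Cd34, a surface protein of stem and progenitor cells, 82.3 CPM of Hlf and 446 CPM of the myeloid granule enzyme Mpo.

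Cells with a mast or basophil UMI carried another expression profile than the 323 cells without one. The transcription cofactor Lmo4, which had no part in defining them, was at 726 against 98.6 CPM over the summed cells, and Csrp3 was at 417 against 71.1. Il1rl1, the receptor of interleukin 33 on mast cells, was at 97.7 against 27.4 CPM, Cpa3 at 273 against 82.3, the interferon-induced membrane protein gene Ifitm1 at 936 against 315 and Cebpa, a myeloid transcription factor, at 54.5 against 12.9. Some erythroid and megakaryocytic genes ran the other way. Aqp1, the water channel of red cells, was at 22.8 against 121 CPM and Car2 at 317 against 611. Blvrb, a heme-degradation enzyme, was at 82.5 against 196, Mef2c at 76.1 against 187 and F2r at 35.5 against 98.0. The platelet genes of the rule did not run that way. They were found in 75 of 134 cells with a mast or basophil UMI (56.0%) and in 232 of all 457 cells. Gata1 was similar, at 85.0 and 93.5 CPM. No test was made, since cells of a library are not replicates.

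The share of Gata2+Apoe+ cells with a mast or basophil UMI was highest in a library of the double mutant. In order of time it was 25.7, 32.8 and 20.3% in WT mice. The 3 time points gave 25.0, 24.4 and 13.6% in E2-KO mice, 21.9, 36.4 and 29.7% in G12D mice and 31.0, 37.5 and 61.9% in the double mutant. The genotype means, in that order, were 26.3 ± 6.23, 21.0 ± 6.39, 29.3 ± 7.25 and 43.5 ± 16.3% (SD, n = 3). The G12D/E2-KO T3 library was the highest with 13 of 21 cells, for which the exact 95% binomial interval was 38.4 to 81.9%. Intervals here cover counting error only. The limit on Prss34 and Mcpt8 alone removed 11, 13 and 10 cells in WT from T1 to T3 and 7, 7 and 5 in E2-KO. It removed 22, 8 and 13 cells in G12D and 33, 15 and 3 in the double mutant. These cells are not counted in the shares, and the part of this limit in the differences was not tested.

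**Figure D2:**
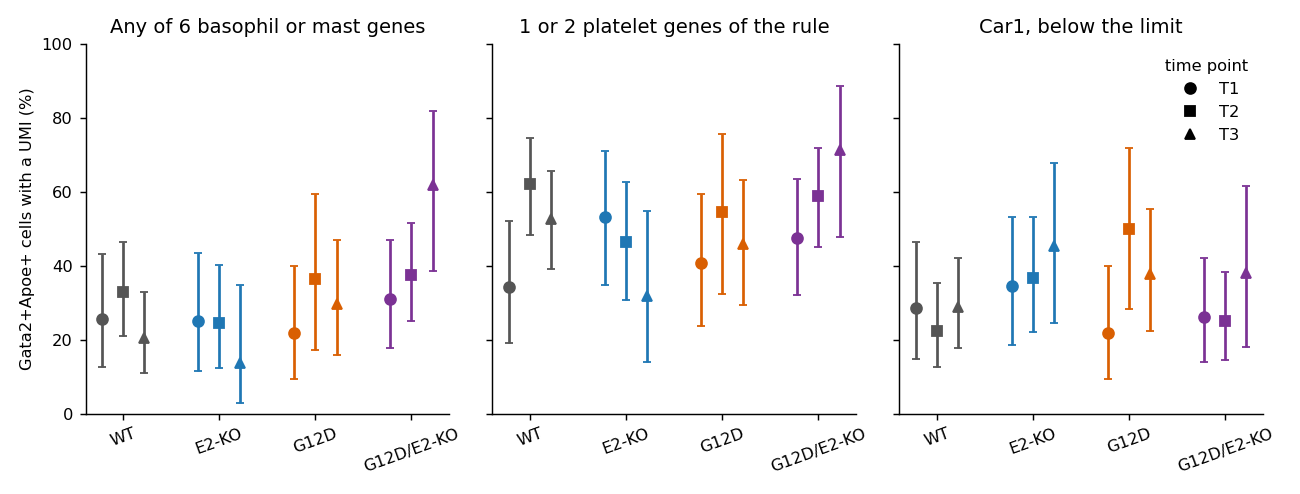
Share of Gata2+Apoe+ cells (vertical axis, %) with a UMI of any of 6 basophil or mast genes (left), of 1 or 2 platelet genes of the rule (middle) and of Car1 below the limit (right), in each of the 12 libraries by genotype. Markers give the time point and bars the exact 95% binomial interval. The mast share of G12D/E2-KO T3 stands highest at 61.9%, and the intervals of most other libraries overlap.

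The limits of the rule cut through continuous levels. Of the 457 cells 231 held exactly 1 UMI of Gata2 and 99 exactly 2 of Apoe. Just outside, 569 cells failed only for lack of Gata2, 208 held only 1 UMI of Apoe, and 513 failed only on Car1, of which 128 were at 5 to 10 per 10000 UMIs. The platelet limit alone removed 86 cells, 43 of them with exactly 3 genes, and Prss34 or Mcpt8 alone removed 147. In the chosen cells 225 held 0, 151 held 1 and 81 held 2 of the platelet genes.

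Over all UMIs the mean share of Gata2+Apoe+ cells was highest in WT, but no test of the difference could reach an adjusted p below 0.05. The groups overlapped at equal depth. From T1 to T3 it was 1.49, 2.04 and 2.47% of cells in WT mice, 1.31, 1.39 and 0.851% in E2-KO mice, 1.16, 0.912 and 1.45% in G12D mice and 1.38, 1.49 and 0.802% in the double mutant. The genotype means were 2.00 ± 0.491, 1.18 ± 0.292, 1.18 ± 0.269 and 1.22 ± 0.368% (SD, n = 3). No mutant library lay above the lowest WT library, from which G12D/E2-KO T2 could not be separated (1.487 against 1.489%). The exact intervals of single libraries were wide, from 1.04 to 2.07% in WT T1 and from 0.497 to 1.22% in G12D/E2-KO T3.

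The differences in share did not pass a test. The log2 difference from WT was -0.76 in E2-KO mice, -0.76 in G12D mice and -0.73 in the double mutant, each with a two-sided exact permutation p of 0.1 (adjusted p = 0.2 over 6 tests), which is the smallest that 3 against 3 libraries allow. Over 6 pairs of libraries matched for time point, deletion of Ezh2 gave -0.36 (exact sign-flip permutation p = 0.344, adjusted p = 0.344, higher in 2 of 6) and activated NRas gave -0.37 (exact sign-flip permutation p = 0.188, adjusted p = 0.281, higher in 2 of 6). The interaction, which is the change in G12D/E2-KO minus the sum of the changes in both single mutants, was 0.79 and positive at 3 of 3 time points (exact sign-flip permutation p = 0.25, the smallest possible, adjusted p = 0.3). Without cells holding a mast or basophil UMI it was 0.33 and positive at 2 of 3, and with Gata2 at 2 or more UMIs it was 1.43. Cells were also thinned to 2000 UMIs, and shallower cells were left out, 216 of E2-KO T3, 32 of G12D T3, 367 of G12D/E2-KO T2, 132 of G12D/E2-KO T3 and 0 of the remaining 8 libraries, so that the denominators changed in mutant libraries only. Over the cells kept the shares were 0.241 to 0.712% and rested on 6 to 24 cells. At this equal depth WT was at 0.511, 0.668 and 0.712%, and E2-KO T1 (0.654%), E2-KO T2 (0.577%), G12D T3 (0.516%), G12D/E2-KO T1 (0.624%) and G12D/E2-KO T2 (0.706%) lay above the lowest WT library. The log2 differences from WT were then -0.45 in E2-KO mice, -0.59 in G12D mice and -0.40 in the double mutant. In these libraries a lower share and less RNA of Gata2 or Apoe per cell cannot be told apart.

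**Figure D3:**
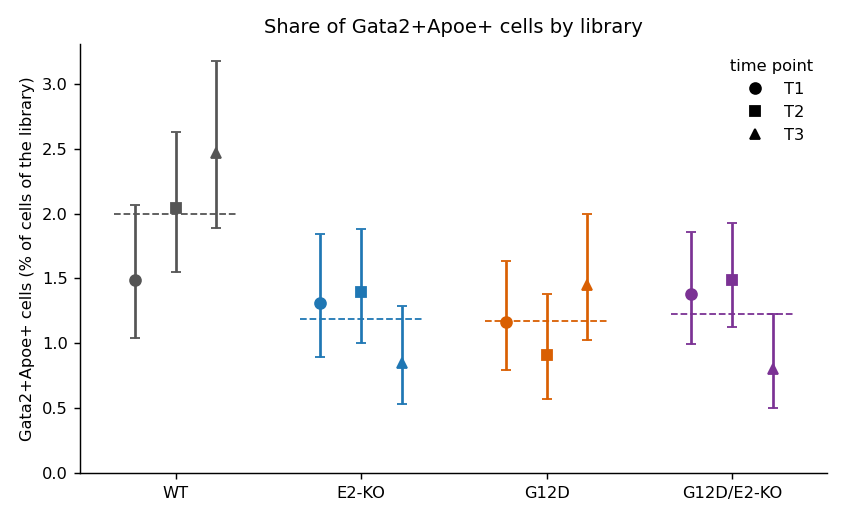
Gata2+Apoe+ cells as a percentage of all cells of a library (vertical axis) for the 12 libraries by genotype, with markers for the time point, bars for the exact 95% binomial interval and dashed lines for the mean of 3 libraries. The WT libraries lie at 1.49 to 2.47% and the mutant libraries at 0.802 to 1.49%.

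The balance between Gata2+Apoe+ cells and their neighbours was not shown to change. There were 0.132 ± 0.0305 Gata2+Apoe+ cells per early erythroid cell in WT mice, 0.0789 ± 0.0108 in E2-KO mice, 0.155 ± 0.0842 in G12D mice and 0.168 ± 0.113 in the double mutant (SD, n = 3). The log2 change was -0.33 with Ezh2 deletion (exact sign-flip permutation p = 0.531) and 0.45 with NRas G12D (exact sign-flip permutation p = 0.313). Megakaryocytic cells per Gata2+Apoe+ cell were 1.09 ± 0.0326 in WT mice, 1.14 ± 0.186 in E2-KO mice, 0.891 ± 0.464 in G12D mice and 3.41 ± 4.43 in the double mutant. The last mean rested on the T3 library, which held 179 megakaryocytic and 21 Gata2+Apoe+ cells, a ratio of 8.52 against 0.690 and 1.02 at T1 and T2. The log2 change was 0.60 with Ezh2 deletion (exact sign-flip permutation p = 0.75) and 0.13 with NRas G12D (exact sign-flip permutation p = 0.906), and all 4 tests had an adjusted p of 0.906. Without the G12D/E2-KO T3 library these log2 changes were -0.09 and -0.39.

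Gene expression within the Gata2+Apoe+ cells was compared on UMIs summed per library. Of all genes 3304 had enough counts for edgeR's quasi-likelihood test, and a gene was called at an adjusted p below 0.05. The numbers called were small in each comparison. In E2-KO against WT 14 genes were called (0.424% of those tested), in G12D against WT 8 (0.242%) and in G12D/E2-KO against WT 20 (0.605%). Averaged over both NRas states the effect of Ezh2 deletion called 19 genes (0.575%), and averaged over both Ezh2 states the effect of NRas G12D called 4 (0.121%). The median log2 change over all genes tested was between -0.03 and 0.01 in every comparison. Comparisons with WT share the WT libraries.

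The targeted gene followed its label. Ezh2 (chr6:47530139-47595341 in GRCm38, minus strand, a protein-coding gene) was at 104, 102 and 104 CPM in WT at T1, T2 and T3 and at 73.8, 115 and 142 CPM in G12D. It was at 24.5, 24.7 and 25.5 CPM in E2-KO and at 14.1, 37.0 and 43.2 CPM in G12D/E2-KO, on 2 to 9 UMIs per library. The 6 libraries with the deletion lay below the 6 without it, and Ezh2 fell by 1.89 ± 0.28 (log2, SE; adjusted p = 3.26e-05). The 3′ reads do not show whether the remaining RNA held the deleted exons. Nras was at 176, 124 and 113 CPM in G12D against 142, 68.0 and 59.2 in WT, and the log2 change of 0.78 ± 0.28 was not called (adjusted p = 0.57). In G12D/E2-KO, which carries the same NRas allele, Nras had 22, 16 and 5 UMIs, and its mean CPM was not above that of WT.

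Averaged over both NRas states, 12 genes were called higher and 7 lower with Ezh2 deletion. For 3 of them, Gdpd3, Pttg1 and Xist, the interaction was called too, so the average does not describe both states. Gdpd3 was at 134, 86.3 and 86.3 CPM in the double mutant against 62.5, 204 and 151 CPM in G12D, and Pttg1 at 95.3, 144 and 162 CPM against 79.5, 115 and 151 CPM, so that on the G12D background the groups overlapped for both. Mt1 (chr8:94179082-94180327, plus strand), the metallothionein that binds zinc and copper, was at 426, 365 and 562 CPM in E2-KO and 515, 403 and 604 CPM in G12D/E2-KO. It was at 484, 116 and 217 CPM in WT and 142, 88.8 and 109 CPM in G12D, so that only WT T1 overlapped the libraries with the deletion. The log2 change was 1.56 ± 0.20 (adjusted p = 1.34e-05). Bmi1 (chr2:18677018-18686629, plus strand), a subunit of Polycomb repressive complex 1 that sustains stem cell self-renewal, was at 58.8, 74.0 and 140 CPM in E2-KO and 77.6, 119 and 75.5 CPM in G12D/E2-KO. The 6 libraries without the deletion held 17.0 to 42.2 CPM of Bmi1, below all of those values, and it rose by 1.60 ± 0.30 on the log2 scale (adjusted p = 0.00174).

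Sapcd1, a gene of little described function, was at 104 to 140 CPM in E2-KO and 159 to 388 CPM in G12D/E2-KO against 0 to 45.4 CPM in the libraries without the deletion, a log2 change of 2.88 ± 0.32 (adjusted p = 9.01e-07). Chchd7, a small mitochondrial protein gene, rose by 1.27 ± 0.20 on the log2 scale, from 45.4 to 102 CPM without to 142 to 268 CPM with the deletion. Crip1, a LIM domain protein of blood cells, was at 903 to 1034 CPM in E2-KO and 755 to 1327 CPM in G12D/E2-KO against 535 to 568 CPM in WT and 591 to 968 CPM in G12D, which overlaps both, and rose by 0.68 ± 0.14. Cxcr4, the receptor that holds progenitors in the marrow niche, rose by 1.34 ± 0.34 (adjusted p = 0.0464), most in G12D/E2-KO T3 with 205 CPM. The X-linked gene Bex4, Pttg1 (securin, which guards the separation of chromatids), Gdpd3, Uqcrq, Hnrnpa0 and Tm9sf3 were the other genes that rose.

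Arf5, a GTPase of the Golgi, fell by 1.04 ± 0.17 on the log2 scale (adjusted p = 0.000155), from 193 to 344 CPM without to 76.6 to 216 CPM with the deletion. Vgll4, a cofactor of TEAD transcription factors, fell by 1.52 ± 0.32 (adjusted p = 0.0057) and Ubb, a ubiquitin gene, by 0.56 ± 0.14 (adjusted p = 0.0348). Gm2a, a lysosomal activator protein gene, fell by 2.52 ± 0.62 in the averaged effect (adjusted p = 0.0452), although it was also below WT in G12D without the deletion, at 11.4, 62.1 and 0 CPM against 84.5 to 119 CPM in WT. Retnlg, a late granulocyte gene, and Xist were also called. For Xist the T3 libraries of WT, E2-KO and G12D held 2792 to 3323 CPM in Gata2+Apoe+ cells and the other 9, G12D/E2-KO T3 among them, held 0.

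The calls of Ezh2, Mt1, Bmi1, Sapcd1, Chchd7, Pttg1 and Arf5 in the averaged effect of Ezh2 deletion were kept without each of the 12 libraries in turn. Other settings ended some of them. With the tables as deposited Mt1, Bmi1 and Sapcd1 were not called (adjusted p of 0.363, 0.0548 and 0.440), with Gata2 at 2 or more UMIs Ezh2 and Arf5 were not (0.0694 and 0.146), and without cells holding a mast or basophil UMI Bmi1 and Pttg1 were not (0.206 and 0.337). Mt1 was also lost with Car1 below 2 per 10000 (0.105) and without time point as a term (0.173). The calls of Bex4 (without E2-KO T3, adjusted p = 0.0759), Retnlg (without E2-KO T1, adjusted p = 0.0768) and Vgll4 (without G12D T1, adjusted p = 0.0577) were each lost without 1 library, that of Crip1 without E2-KO T1 or G12D T1 (adjusted p up to 0.0708) and that of Gdpd3 without WT T1, WT T2 or E2-KO T3 (adjusted p up to 0.0824). The calls of Cxcr4, Gm2a and Hnrnpa0 were lost without any of 8 and those of Tm9sf3, Ubb and Uqcrq without any of 9 of the 12 libraries.

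**Figure D4:**
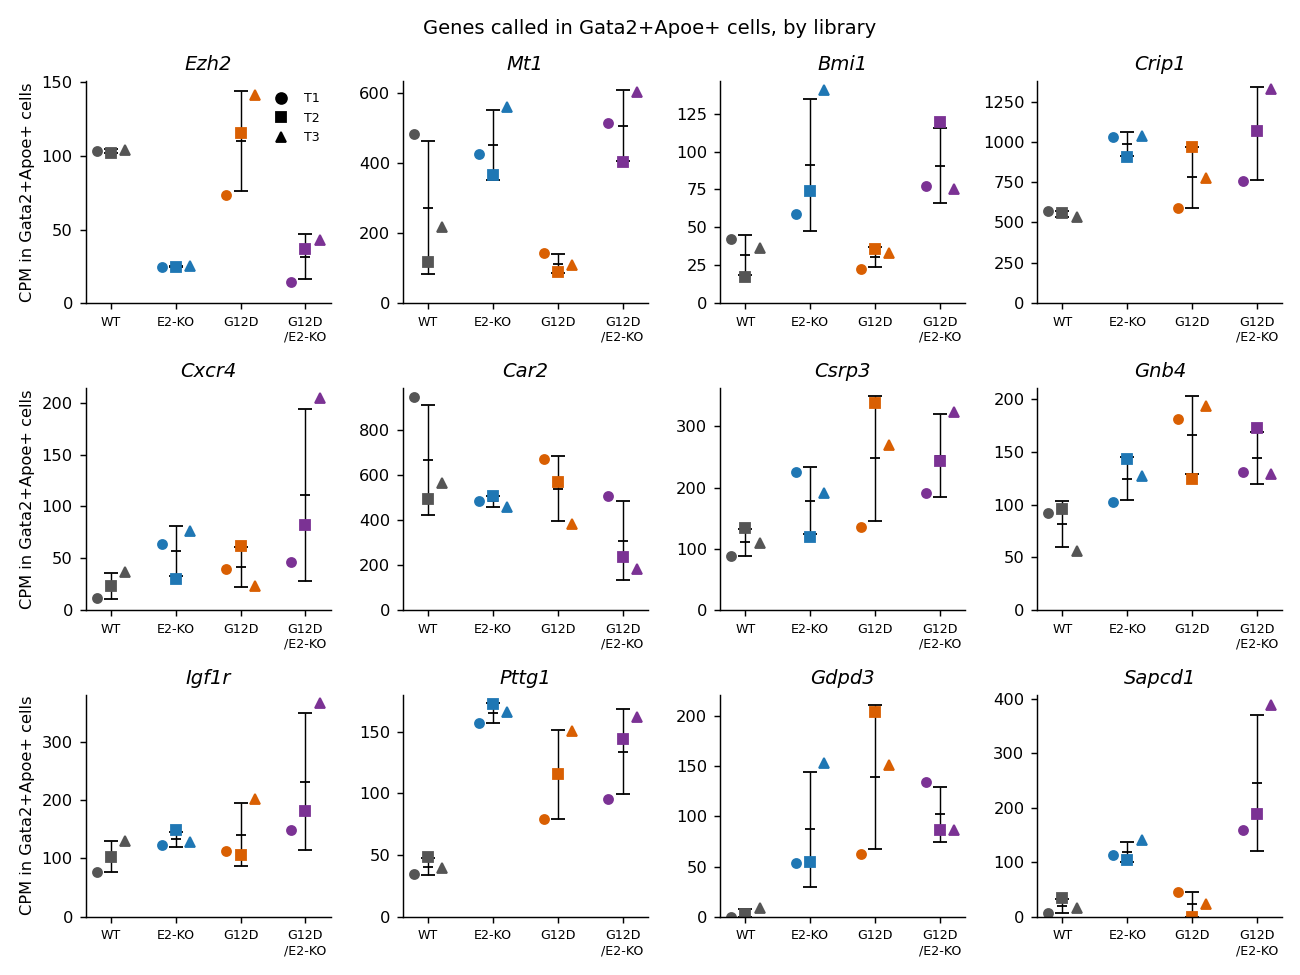
CPM in Gata2+Apoe+ cells (vertical axes, each from 0) of 12 called genes in the 12 libraries by genotype, with markers for the time point and black bars for the mean and SD of 3 libraries. Ezh2 is low and Bmi1 high in all 6 libraries with the deletion, and Gdpd3 and Pttg1 are near 0 or low in WT only.

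In the comparisons of single genotypes with WT, 3 genes stood out in every mutant. Gdpd3, a lysophospholipase gene, had 0, 1 and 3 UMIs in WT, which is 0 to 8.45 CPM, and 53.9 to 204 CPM in the 9 mutant libraries. Pttg1 was at 34.6, 48.2 and 39.4 CPM in WT and at 79.5 to 173 CPM in the mutants, a log2 change of 2.13 ± 0.30 in E2-KO mice, 1.59 ± 0.31 in G12D mice and 1.77 ± 0.30 in the double mutant (adjusted p of 2.07e-05, 0.00778 and 0.000338). Gm2a was the one that fell, to 0 to 62.1 CPM. These changes were not particular to Gata2+Apoe+ cells. In early erythroid cells of E2-KO, G12D and G12D/E2-KO, in that order, Gdpd3 had log2 changes of 4.49, 4.64 and 5.84 against WT. Pttg1 had 1.87, 1.41 and 1.55 there, and both genes were called in each comparison. Gm2a had -2.23, -1.61 and -2.47 and was not called in G12D. For Gdpd3 and Pttg1 the double mutant fell short of the sum of the single changes, with an interaction of -4.30 ± 0.80 (adjusted p = 0.0168) and -1.95 ± 0.41 (adjusted p = 0.017). The interaction called 4 genes (0.121%), and the others were Xist and Tpm3-rs7. Tpm3-rs7, a tropomyosin-related sequence whose reads may be shared with near-identical relatives, was at 113, 123 and 12.8 CPM in E2-KO and 73.8, 231 and 70.8 CPM in G12D, but at 0 to 21.6 CPM in WT and G12D/E2-KO (interaction -5.99 ± 0.76, adjusted p = 2.33e-05). The call of Gm2a was lost in E2-KO without E2-KO T2 (adjusted p = 0.0509) and in G12D without any WT library, G12D T1 or G12D T3 (adjusted p up to 0.847). The call of Pttg1 in G12D was lost without WT T3 or G12D T3 (adjusted p up to 0.525). The call of Gdpd3 held without each of the 12 libraries in turn in all 3 comparisons with WT. The interaction of Gdpd3 was lost without WT T2, WT T3, E2-KO T1 or G12D T3 (adjusted p up to 0.137) and that of Pttg1 without any of 6 libraries, while that of Tpm3-rs7 was kept without each of the 12. Without time point as a term (no replicate block) none of the 4 interactions was called by edgeR (adjusted p = 0.0534 for Gdpd3, Pttg1 and Tpm3-rs7 and 0.996 for Xist), and with the tables as deposited that of Tpm3-rs7 was not (adjusted p = 0.228). Gdpd3 and Pttg1 were not called with Gata2 at 2 or more UMIs (adjusted p of 0.999 and 0.126) or with Car1 below 2 per 10000 (0.133 and 0.144), Pttg1 was not with DESeq2 (0.447) or without cells holding a mast or basophil UMI (0.429), and Xist was not with DESeq2 or with itself as a covariate. WT differed from all mutants in Mx1-Cre, and its part in values shared by the 3 mutants was not tested.

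Csrp3, the muscle LIM protein gene that also led the mast-type cells, was called higher than in WT in both genotypes with NRas G12D. Csrp3 (chr7:48830398-48848033, minus strand) was at 88.3, 133 and 110 CPM in WT, 136, 337 and 269 CPM in G12D, 225, 118 and 191 CPM in E2-KO and 191, 243 and 324 CPM in G12D/E2-KO. Every library with NRas G12D lay above all WT libraries, while those of E2-KO overlapped both, so that among mice with Mx1-Cre the groups with and without NRas G12D were not separate. The log2 change was 1.19 ± 0.25 in G12D (adjusted p = 0.0218) and 1.23 ± 0.25 in G12D/E2-KO (adjusted p = 0.00493), and the averaged effect was 0.81 ± 0.18 (adjusted p = 0.0493). Without the 134 cells that held a mast or basophil UMI the changes were 0.98 in G12D, 0.80 in G12D/E2-KO and 0.86 in the averaged effect, and none was called (adjusted p of 0.978, 0.707 and 0.920). DESeq2 did not call Csrp3 in any comparison. The averaged call was lost without any of 10 libraries, the call in G12D without WT T1, WT T3, G12D T2 or G12D T3 (adjusted p up to 0.525), and the call in G12D/E2-KO without WT T1 or WT T3 (adjusted p up to 0.132).

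Of the 4 tested genes of the basophil and mast cell list Csrp3 was the 1 called in G12D, in G12D/E2-KO and in the averaged NRas comparison, where 0.242%, 0.605% and 0.121% of all genes tested were called, and 0 were called in the other 3 comparisons. DESeq2 called 0 of the 4 in each, and 2 to 3 of them had an unadjusted p below 0.05 in edgeR. The list had a median log2 change of 0.79 in G12D and 1.18 in G12D/E2-KO against 0.01 and 0.00 over all genes, and of 0.61 in E2-KO against 0.00. Fcer1a was at 0, 17.0 and 16.9 CPM in WT, 34.1, 79.9 and 85.0 CPM in G12D, 78.4, 24.7 and 76.6 CPM in E2-KO and 31.8, 16.4 and 183 CPM in G12D/E2-KO, and its log2 change of 2.30 ± 0.67 in G12D/E2-KO was not called (adjusted p = 0.183). Ms4a2 reached 378 CPM in G12D/E2-KO T3 against 59.2 to 164 CPM in WT and was not called (1.13 ± 0.41, adjusted p = 0.411), nor was Cpa3 (-0.30 ± 0.28). The summed list was at 344 to 572 CPM in WT, 459 to 622 with E2-KO, 432 to 1003 with G12D and 533 to 1101 with both mutations.

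Further genes were called in G12D and in the double mutant. Gnb4, a G protein subunit and itself a leading gene of the cells, was at 182, 124 and 194 CPM in G12D against 92.1, 96.3 and 56.4 in WT (log2 change 1.20 ± 0.27, adjusted p = 0.032), and its call was lost without any WT library, G12D T1 or G12D T3. Gm8730, a processed pseudogene whose reads may come from a parent gene, and H2-Q4, an MHC class I gene, were the remaining genes that rose in G12D, and both calls were lost when WT T1, WT T3, G12D T1 or G12D T3 was left out, as was that of Gm8730 without G12D/E2-KO T3 and that of H2-Q4 without G12D T2 (adjusted p up to 0.344 and 0.525). In G12D/E2-KO Igf1r, the receptor of insulin-like growth factor 1, was at 148, 181 and 367 CPM against 76.8, 102 and 130 in WT, with no overlap (1.16 ± 0.24, adjusted p = 0.00493). DESeq2 called neither Igf1r nor Car2 there. The call of Igf1r was lost without WT T1, WT T3 or G12D/E2-KO T3 (adjusted p up to 0.117).

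Car2 was at 508, 234 and 183 CPM in G12D/E2-KO against 948, 493 and 564 in WT, and fell by 1.01 ± 0.23 on the log2 scale (adjusted p = 0.0158). G12D/E2-KO T1 overlapped with WT, and leaving out WT T1, WT T3, G12D/E2-KO T2 or G12D/E2-KO T3 ended the call (adjusted p up to 0.239). The tubulin gene Tuba4a fell by 1.34 ± 0.30 and the adipokine gene Fam132a by 1.37 ± 0.31, each in all 3 libraries below every WT library. Each of these calls was lost without any of 4 libraries (adjusted p up to 0.231 and 0.363). The mean CPM of both genes was also below that of WT in E2-KO and in G12D, where neither gene was called. The falls were therefore not shown to be particular to the double mutant.

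Of the 11 tested early erythroid genes Mt1 rose with Ezh2 deletion and in G12D/E2-KO, and Car2 fell in G12D/E2-KO. In those comparisons the list medians were 0.29 and 0.23 log2, and edgeR's calls among all 3304 genes made up 0.575% and 0.605%. The call of Mt1 in G12D/E2-KO was lost when WT T2, WT T3, G12D T2, G12D/E2-KO T2 or G12D/E2-KO T3 was left out (adjusted p up to 0.324), and with DESeq2 (adjusted p = 0.0975). None of the 18 tested erythroid and megakaryocytic transcription factors was called by edgeR or by DESeq2 in any of the 6 comparisons, with 0 to 5 of them at an unadjusted p below 0.05 and list medians of -0.12 to 0.16. Over all genes tested edgeR called 0.121 to 0.605%, so that 0 of 18 is near that share and does not show these factors to be unchanged. Gata1 had a log2 change of 0.19 ± 0.31 in G12D/E2-KO and Klf1 of 0.00 ± 0.30. Myb had the lowest adjusted p among them, 0.155 in the averaged effect of Ezh2 deletion (0.54 ± 0.16), and was at 423, 407 and 486 CPM in G12D/E2-KO against 250, 346 and 259 in WT (0.70 ± 0.22, adjusted p = 0.206). Of 7 tested receptors Igf1r was the 1 called, in G12D/E2-KO (0.605% over all genes). None of 10 other platelet genes, 27 S phase genes, 28 G2 and M phase genes, 5 Ras genes, 3 ERK output genes, 5 interferon response genes or 3 haem synthesis enzymes was called by either tool in any of the 6 comparisons, where edgeR called 0.121 to 0.605% of all genes tested, with 0 to 3 of each list at an unadjusted p below 0.05. The same holds of 8 granulocyte-macrophage progenitor genes, 5 late erythroid genes and 2 inhibitors of cyclin-dependent kinases. Counts of 0 in lists of this size are near the share over all genes and do not show the lists to be unchanged.

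No stem and multipotent progenitor gene was called with Ezh2 deletion. The 20 genes summed to 1731 to 2012 CPM in WT and 1722 to 1987 CPM in G12D, and to 1496 to 1646 CPM in E2-KO and 1401 to 1554 CPM in G12D/E2-KO, so the libraries with and without the deletion did not overlap. Of 13 tested genes 11 had a negative log2 change in the averaged effect, with a median of -0.35 against -0.01 over all genes. None was called by edgeR or DESeq2, and 1 had an unadjusted p below 0.05. Over all genes tested 0.575% were called in this comparison. Cd27, a costimulatory receptor of multipotent progenitors, had the lowest value with -1.17 ± 0.34 (adjusted p = 0.131). The log2 changes of Cd34, Meis1 and Ctla2a were -0.47 ± 0.24, -0.40 ± 0.22 and -0.22 ± 0.16. A score over the list was not tested.

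Within Polycomb repressive complex 2 Ezh2 was the 1 gene called of 7 tested in E2-KO, in G12D/E2-KO and in the averaged effect of Ezh2 deletion, where 0.424%, 0.605% and 0.575% of all genes tested were called. Within complex 1 Bmi1 was the 1 called of 4 in G12D/E2-KO and in the averaged effect. Of 14 genes that the study had chosen on these samples, which are not independent evidence of their direction, 9 were tested and Crip1 alone was called, in E2-KO, in G12D/E2-KO and in the averaged effect of Ezh2 deletion. Hmga2, an oncofetal chromatin protein, had 1 to 12 UMIs per library and was not tested. It was at 58.8, 29.6 and 38.3 CPM in E2-KO, 42.3, 24.7 and 21.6 in G12D/E2-KO, 28.4, 17.8 and 4.72 in G12D and 26.9, 2.83 and 5.64 in WT, with the T1 library the highest in each genotype. Flt3 had 0 to 5 UMIs per library. Gem had 15 UMIs in G12D T3 and 13 in G12D/E2-KO T3, in 21.6% and 23.8% of the cells, and 0 to 2 in each other library.

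Late granulocyte genes and the share of late granulocytes in the library were both lower in E2-KO than in WT. All 9 tested genes of the list had a negative log2 change in E2-KO against WT, with a median of -2.002 against 0.00 over all genes. Of them Lcn2 and Ltf, proteins of neutrophil granules, were called, where 0.424% of all genes tested were called. DESeq2 called 3 genes of the list in this comparison. Lcn2 was at 29.4, 29.6 and 25.5 CPM in E2-KO against 146, 76.5 and 169 CPM in WT (-2.002 ± 0.44, adjusted p = 0.0206), and its call was lost without WT T1, WT T3, E2-KO T1 or E2-KO T3 (adjusted p up to 0.406). The call of Ltf was lost without WT T3 or any E2-KO library (adjusted p up to 0.417). In the double mutant against WT the median was -0.96 and 0 of the 9 genes were called by edgeR or DESeq2, with 6 at an unadjusted p below 0.05. Over all genes tested edgeR called 0.605% there. The summed list of 10 genes was at 1698 to 2578 CPM in E2-KO, 4648 to 13750 in WT, 5452 to 5823 in G12D and 1565 to 5606 in G12D/E2-KO. Late granulocytes made up 17.7 to 20.6% of cells in E2-KO, 35.3 to 41.4% in WT, 39.3 to 41.9% in G12D and, in order of time, 46.3, 31.6 and 20.5% in the double mutant. In early erythroid cells the log2 change of Lcn2 was -1.52 ± 0.44 (adjusted p = 0.211). The part of free RNA from late granulocytes in these values was not tested.

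Several changes with Ezh2 deletion had a counterpart in early erythroid cells. Ezh2 changed by -2.20 ± 0.10 there, Bmi1 by 1.76 ± 0.11, Chchd7 by 1.09 ± 0.10, Arf5 by -1.40 ± 0.09 and Sapcd1 by 2.19 ± 0.22 on the log2 scale. Mt1 had a log2 change of 0.22 ± 0.11 (adjusted p = 0.242) against 1.56 in Gata2+Apoe+ cells, but the test of this difference did not call it. In G12D/E2-KO against WT early erythroid cells had called changes of Igf1r (1.04 ± 0.19), Car2 (-0.79 ± 0.14) and Tuba4a (-0.91 ± 0.14). Fam132a (-0.55 ± 0.18) was not called there. Gdpd3, Pttg1, Bmi1, Arf5 and Fam132a had been listed because they moved over all cells in an earlier analysis.

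The test of the difference between both classes, made over 9032 genes, called 10 genes for the effect of Ezh2 deletion (0.111%) and 13 for that of NRas G12D (0.144%). Of these 23 differences 22 were negative, which means a lower log2 change in Gata2+Apoe+ cells. Vim, the intermediate filament of mesenchymal and blood cells, had a log2 change of -0.42 ± 0.17 in Gata2+Apoe+ cells and 0.79 ± 0.37 in early erythroid cells (difference -1.20 ± 0.17, adjusted p = 4.92e-08). The log2 changes of Ctla2a were -0.22 ± 0.16 and 1.02 ± 0.24 (difference -1.15 ± 0.20, adjusted p = 9.66e-05), those of Nrgn, a calmodulin-binding protein of platelets, 0.32 ± 0.24 and 1.44 ± 0.14 (difference -0.93 ± 0.21, adjusted p = 0.00969) and those of Sox4, a progenitor transcription factor, -0.56 ± 0.17 and 0.29 ± 0.19 (difference -0.93 ± 0.21, adjusted p = 0.00969). These genes were low in early erythroid cells without the deletion and at several times that level in Gata2+Apoe+ cells. Vim was at 28.5 CPM there and at 50.8 CPM with the deletion, whereas Gata2+Apoe+ cells had 404 and 293 CPM. Rgs10, a regulator of G protein signaling, was the gene with a positive difference (1.17 ± 0.26, adjusted p = 0.00969).

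For NRas G12D Ms4a3, a gene of myeloid progenitors, had a log2 change of -0.55 ± 0.20 in Gata2+Apoe+ cells and 0.84 ± 0.27 in early erythroid cells (difference -1.39 ± 0.23, adjusted p = 1.69e-05). Ms4a2 was at 190 CPM with and 120 CPM without NRas G12D in Gata2+Apoe+ cells and at 6.87 and 0.937 CPM in early erythroid cells (difference -1.78 ± 0.39, adjusted p = 0.00796). Plac8, a progenitor gene, was at 2695 and 2446 CPM against 444 and 253 CPM (difference -0.63 ± 0.13, adjusted p = 0.00796). The differences of Ms4a3 and Serpina3g with NRas G12D and of Vim, Ctla2a and Bex1 with Ezh2 deletion were called without each of the 12 libraries in turn. The other 18 were lost without at least 1 library, that of Ms4a2 without E2-KO T1, G12D T1, G12D T3, G12D/E2-KO T1 or G12D/E2-KO T3 (adjusted p up to 0.295), that of Plac8 without E2-KO T3, G12D T1, G12D T3 or G12D/E2-KO T3 (adjusted p up to 0.995), that of Sox4 without any of 4 libraries (adjusted p up to 0.172) and those of Nrgn and Rgs10 without any of 6 (adjusted p up to 0.212 and 0.145).

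**Figure D5:**
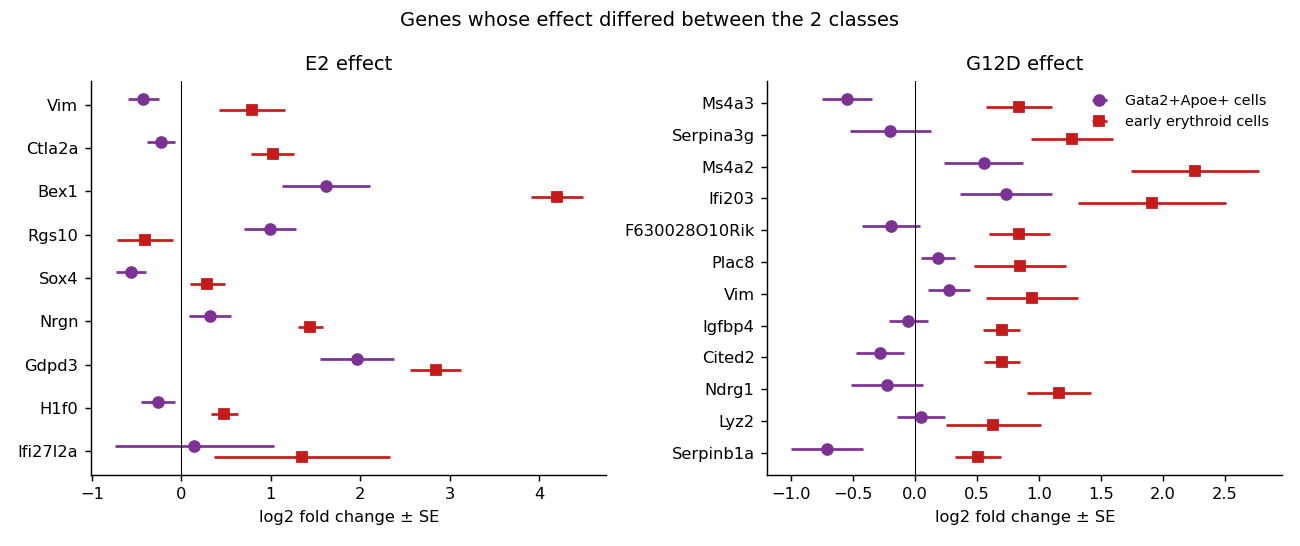
Log2 fold change with SE (horizontal axis) of the genes whose effect of Ezh2 deletion (left) or of NRas G12D (right) differed between Gata2+Apoe+ cells (circles) and early erythroid cells (squares), from separate fits of each class. Tcf15 and Arsb, too low to be fitted in Gata2+Apoe+ cells alone, are not drawn. All genes but Rgs10 lie lower in Gata2+Apoe+ cells.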

How the data were processed

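The authors enriched c-Kit+ bone marrow cells by magnetic separation, made droplet 3′ libraries, aligned the reads to mm10 and counted UMIs with Cell Ranger. They deposited 1 table of raw UMI counts per library after removing cells with over 10% mitochondrial UMIs and doublets found with Scrublet. No further doublet step was made here. The tables held 35597 cells, all values were whole counts, and time points follow the labels. Cell names inside all 12 tables run from T0 to T2 and so lie 1 step below the labels' T1 to T3, and which numbering the study meant for a table was not settled beyond the labels.

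G12D T1 cells with a cosine above 0.9 to a G12D/E2-KO T1 cell were dropped (genes ranked 301 to 8300 by total UMIs). Members and gene lists were chosen with earlier results of these data known. UMIs were summed over members per library and tested with edgeR 4.0.16 (TMM, filterByExpr, robust quasi-likelihood, R 4.3.3) on genotype plus time point, with Benjamini-Hochberg adjustment over all genes tested. The 11 genes of the rule stayed in library sizes and were not tested. The difference between classes used 24 sums with a term per library. The rule for naming took up to 10 called genes per direction with the largest change at 20 CPM or more in a genotype, called list genes, up to 4 further genes of each list by level (whole lists for transcription factors, complex 2, fetal, study-chosen and earlier-moved genes), and the 20 highest ratios to other cells at 50 CPM or more. Other genes were named after their values were seen. All p-values are two-sided. Shares were tested by exact permutations (6 tests in 1 family, 4 for ratios). Since a library is not stated to be a separate animal, p-values measure the spread between these libraries. The scripts were tested on simulated counts. Alternatives were DESeq2 1.42.0, other filters, scalings and designs, other limits of the rule and leaving out each library.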

Additional observations from a re-analysis of the deposited data

Results flagged for a closer look

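The change in G12D/E2-KO differed from the sum of the changes in both single mutants (edgeR interaction test) for 4 genes. The log2 interaction was -5.99 for Tpm3-rs7, -4.30 for Gdpd3, -1.95 for Pttg1 and -10.08 for Xist, the last between libraries of which 3 of 12 held Xist. The T3 libraries of WT, E2-KO and G12D held Xist and that of G12D/E2-KO did not. Without 1 library the interaction of Xist ranged from -10.90 to -0.333, and its call was lost without any T3 library. It is not read here as an effect of both mutations.

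The effect of Ezh2 deletion differed between Gata2+Apoe+ cells and early erythroid cells in the test of the difference. The log2 difference was -1.20 for Vim, -1.15 for Ctla2a, -2.90 for Bex1, -0.93 for Sox4, -0.93 for Nrgn, -1.40 for Gdpd3, -0.80 for H1f0, -1.39 for Ifi27l2a and 1.17 for Rgs10. For Tcf15 it was -3.79 and rested on 17 UMIs in Gata2+Apoe+ cells.

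The effect of NRas G12D differed between the same classes for 13 genes. The log2 difference was -1.39 for Ms4a3, -1.75 for Serpina3g, -1.78 for Ms4a2, -1.48 for Ifi203, -1.19 for F630028O10Rik and -0.63 for Plac8. It was -0.75 for Vim, -0.78 for Igfbp4, -1.01 for Cited2, -1.56 for Ndrg1, -0.72 for Lyz2 and -1.39 for Serpinb1a. For Arsb it was -4.73 and rested on 26 UMIs in Gata2+Apoe+ cells.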

How the results depend on the processing

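Of the settings tried for shares, ratios and counts of genes, 293 kept the direction and, for tests, the side of the threshold, or, for counts of genes, stayed within 1.5 times, 61 moved and 6 reversed, and the cause was not tested. For shares the side of the threshold was fixed in advance, since no adjusted p there could fall below 0.05, so only the direction could change. Sizes moved within those kept: the log2 effect of Ezh2 deletion on the share was -0.126 in thinned cells and -0.773 with Apoe at 3 or more UMIs, and on Gata2+Apoe+ cells per early erythroid cell -0.0255 in thinned cells. The number of genes called in E2-KO against WT, G12D against WT, G12D/E2-KO against WT, the interaction, the averaged effect of Ezh2 deletion and that of NRas G12D was 14, 8, 20, 4, 19 and 4. DESeq2 called 3 in G12D, 5 in G12D/E2-KO, 2 in the interaction and 2 for NRas G12D. Without a filter on low counts these were 17, 36, 8 and 10, with 34 for Ezh2 deletion. With Gata2 at 2 or more UMIs the calls were 9, 2, 5, 1 and 11 in the first 5 comparisons. With Car1 below 2 per 10000 they were 4 in G12D, 2 in the interaction and 6 for the difference of the Ezh2 effect from early erythroid cells (10 before). Without cells holding a basophil or mast gene UMI, a setting chosen after seeing the data, 9, 2 and 6 genes were called in the 3 mutants and 10 for Ezh2 deletion. Only the 2 genotypes compared gave 28 in E2-KO, Xist as a covariate gave 26 in E2-KO and 30 for Ezh2 deletion, and the tables as deposited gave 7 in each.

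Time points shared a number across genotypes. Same-numbered libraries correlated at -0.0997 to 0.168 in 18 pairs, 6 of them over 0.1, and 9 of 12 libraries correlated best with their own number, so the numbers were not shown to pair libraries beyond the shared time point, which the main model held as a term and the share tests used for matching. Without the replicate block the calls were 8, 2, 11, 0, 13 and 1 in the 6 comparisons above.

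Leaving out 1 library gave 5 to 27, 2 to 12, 6 to 23, 1 to 6, 11 to 30 and 1 to 6 calls in those comparisons, and 3 to 28 and 3 to 23 for the differences of the Ezh2 and NRas effects from early erythroid cells. The log2 effect of NRas G12D on the share turned to 0.0201 with Gata2 at 2 or more UMIs. That on megakaryocytic cells per Gata2+Apoe+ cell was -0.0790 in thinned cells and -0.390 to 0.379 without 1 library, and that of Ezh2 deletion -0.0898 to 0.815. Xist reversed with itself as covariate, to 0.124 in G12D/E2-KO, 0.00927 for Ezh2 deletion and 0.115 for NRas G12D, and ranged without 1 library from -10.44 to 0.115, from -5.28 to 0.000179 and from -5.15 to 0.115 (highest without G12D/E2-KO T3).

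Depth limits these results. A library held 21 to 59 cells and 3304 genes could be tested, so that smaller changes and low genes were not detectable.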
